A study of Mus musculus with 20 samples.

Results

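Of 13457 CpG-dense windows of the mouse genome, 528 (3.92%) were methylated in promyelocytes, and these 528 windows are described here. Promyelocytes are the precursors of granulocytes and the stage at which PML-RARα, the fusion protein of acute promyelocytic leukaemia, acts. The windows were fixed stretches of 1000 bp on chromosomes 1 to 19 of the mm9 genome. A window was CpG-dense when it held at least 20 CpG cytosines that were read at least 10 times in all 20 libraries, and methylated when its mean level over the 20 libraries was at least 20%. The level of a window in a library was the percent of its reads, summed over its cytosines, that were methylated. Membership therefore rests on the measured levels themselves, and the mean level of a window is given below as a description only. CpG-dense windows were a small part of the 156775 windows with any shared cytosine and of the 84524 windows with at least 3, which were all tested.

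Methylation was read by ERRBS (enhanced reduced representation bisulfite sequencing), which sequences CpG-rich restriction fragments after bisulfite treatment, which leaves methylated cytosines as C and turns unmethylated ones into T. The mice were of the FVB/n background and either carried the PML-RARα transgene or were wild-type (WT) controls. From each genotype, late promyelocytes without CD34 on their surface (CD34−) and early promyelocytes with CD34 (CD34+) were sorted. This gave 4 groups of 5 libraries: PML-RARα CD34−, PML-RARα CD34+, WT CD34− and WT CD34+. The labels do not state the promoter that drives the transgene, the age of the mice or whether the 5 libraries of each group are separate mice, so p-values measure the spread between these libraries. Total coverage per library, summed over cytosines, lay between 83631324 and 362881291, and 1150978 cytosines were shared by all libraries. The libraries were run on 4 flowcells, and PML-RARα CD34− and CD34+ libraries shared only 1 of them.

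CpG islands, the stretches in which CpGs stay frequent, are mostly free of methylation in normal cells and often hold promoters. The known exceptions include the promoters of genes used in germ cells, which are methylated and silent in other tissues, and imprinted regions, where the copy from 1 parent is methylated and the other is not. DNA methyltransferases copy methylation to the new strand at each cell division. Methylation of a promoter island usually goes with silence of its gene.

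The sequences below show 8 promoters that lay in methylated CpG-dense windows, since their levels are described further on. They come from RefSeq on the GRCm38.p6 build and give, 5′ to 3′ on the gene's strand, the 250 bases before the start of the gene. The levels cover these and the 50 bases after the start, which are not printed, so some measured CpGs lie outside the printed bases. Capitals mark the CpGs that were measured in all 20 libraries. Ddx4, Mael, Boll and Smc1b act in germ cells, Papolb and Sox30 in the testis, and Plagl1 and Igf2r are imprinted. In order of mention, 16, 12, 14, 13, 15, 14, 8 and 17 CpGs are capitalised.
Ddx4, chr13:112652311-112652560, minus strand: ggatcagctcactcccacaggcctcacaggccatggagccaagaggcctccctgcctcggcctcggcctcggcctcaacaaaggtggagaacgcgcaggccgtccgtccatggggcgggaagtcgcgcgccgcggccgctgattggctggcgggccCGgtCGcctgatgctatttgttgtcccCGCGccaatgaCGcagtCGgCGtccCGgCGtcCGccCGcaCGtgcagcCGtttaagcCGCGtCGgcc
Mael, chr1:166238745-166238994, minus strand: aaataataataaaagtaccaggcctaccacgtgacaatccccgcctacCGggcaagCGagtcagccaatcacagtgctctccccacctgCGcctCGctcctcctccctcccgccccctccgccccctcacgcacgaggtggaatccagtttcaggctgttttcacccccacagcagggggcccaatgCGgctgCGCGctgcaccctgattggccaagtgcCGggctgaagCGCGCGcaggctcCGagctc
Boll, chr1:55362729-55362978, minus strand: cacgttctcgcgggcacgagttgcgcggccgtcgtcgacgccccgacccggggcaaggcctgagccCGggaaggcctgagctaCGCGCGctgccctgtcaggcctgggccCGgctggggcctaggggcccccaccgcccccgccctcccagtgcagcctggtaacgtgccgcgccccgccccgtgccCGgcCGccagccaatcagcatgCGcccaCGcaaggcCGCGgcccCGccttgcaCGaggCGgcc
Smc1b, chr15:85131958-85132207, minus strand: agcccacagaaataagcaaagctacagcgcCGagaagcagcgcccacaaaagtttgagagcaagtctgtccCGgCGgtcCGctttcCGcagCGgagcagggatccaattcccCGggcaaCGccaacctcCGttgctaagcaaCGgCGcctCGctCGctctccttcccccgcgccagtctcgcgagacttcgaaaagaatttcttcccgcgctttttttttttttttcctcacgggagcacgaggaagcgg
Papolb, chr5:142530077-142530326, minus strand: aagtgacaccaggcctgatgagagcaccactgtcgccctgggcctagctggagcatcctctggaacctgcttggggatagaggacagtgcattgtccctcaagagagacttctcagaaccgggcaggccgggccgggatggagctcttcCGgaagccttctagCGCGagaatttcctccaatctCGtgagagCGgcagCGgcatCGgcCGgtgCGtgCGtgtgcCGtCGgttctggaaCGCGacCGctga
Sox30, chr11:45980060-45980309, plus strand: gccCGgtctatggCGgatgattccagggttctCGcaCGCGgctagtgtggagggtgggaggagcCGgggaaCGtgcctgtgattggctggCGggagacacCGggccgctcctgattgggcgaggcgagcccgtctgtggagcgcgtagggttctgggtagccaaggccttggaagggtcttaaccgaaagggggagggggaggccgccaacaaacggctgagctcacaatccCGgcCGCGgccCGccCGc
Plagl1, chr10:13090582-13090831, plus strand: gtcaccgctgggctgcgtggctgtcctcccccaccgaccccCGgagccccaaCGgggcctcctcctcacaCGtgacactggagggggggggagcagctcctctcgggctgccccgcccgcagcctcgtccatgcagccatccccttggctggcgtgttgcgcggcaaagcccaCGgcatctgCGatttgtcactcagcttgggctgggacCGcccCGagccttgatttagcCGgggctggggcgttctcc
Igf2r, chr17:12769707-12769956, minus strand: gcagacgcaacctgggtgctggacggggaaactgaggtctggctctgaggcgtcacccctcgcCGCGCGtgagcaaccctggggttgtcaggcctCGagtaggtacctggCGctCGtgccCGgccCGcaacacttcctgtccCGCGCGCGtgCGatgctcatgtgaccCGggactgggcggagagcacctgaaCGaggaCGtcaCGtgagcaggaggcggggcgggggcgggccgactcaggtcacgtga

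Levels of CpG-dense windows formed a large unmethylated group and a small methylated tail. Of the 13457 windows, 9784 (72.7%) had a mean level below 1%, and 269 lay between 10 and 20%. Among the methylated windows, 193 had a level of 20 to 40%, 58 of 40 to 60%, 66 of 60 to 80% and 211 of at least 80%. Intermediate levels were the least common, with 27 windows between 50 and 60% against 126 at 90% or above. The median level was 65.0%, and the highest was 97.3%, at chr8:111316001-111317000. The windows held 15262 cytosines, 20 to 178 each with a median of 25, and these cytosines spanned a median of 558 bp. Each window summed at least 298 reads in every library, with a median of 2694 reads.

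**Figure D1:**
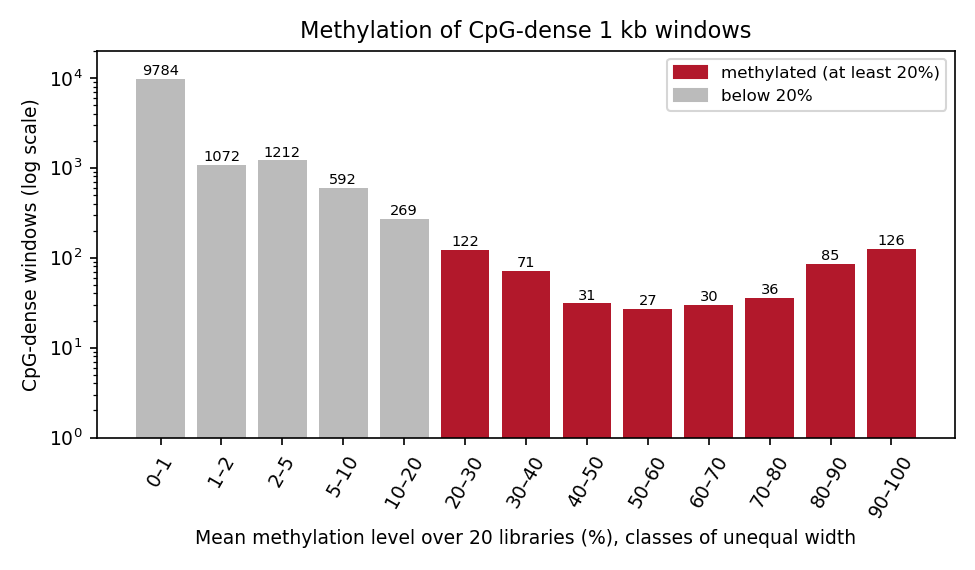
CpG-dense windows counted by their mean methylation level over the 20 libraries, with the number of windows on a log scale and classes of unequal width. The 528 methylated windows (dark bars) have most members at both ends, 122 at 20 to 30% and 126 at 90 to 100%, and fewest at 50 to 60%, with 27.

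The limits of the definition cut through a continuous range. Just inside the limit of 20% lay chr2:167317001-167318000 with 20.0%, chr5:24097001-24098000 with 20.1% and chr17:23879001-23880000 with 20.2%. Just outside it lay chr15:76555001-76556000 with 19.8% and chr6:53771001-53772000 with 19.9%. Windows at 20% or above numbered 76 with 20 cytosines and 80 with 19 cytosines, so the minimum of cytosines falls where windows are common.

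How the cytosines within a window were methylated differed between windows. In 187 windows (35.4%), at least 80% of the cytosines were themselves methylated at 80% or more, and these are called uniformly high here. Another 105 windows (19.9%) held a step, where splitting the window at 1 position accounted for at least 66.7% of the variance between cytosines and the sides differed by at least 40 points. In 90 windows (17.0%), at least 80% of the cytosines lay between 20 and 80%, and these are called uniformly intermediate. The remaining 146 windows (27.7%) were mixed. Step windows had a median level of 29.3%, and uniformly high ones of 92.2%.

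The less methylated side of a step window was below 10% in 56 of the 105, between 10 and 20% in 26 and at 20% or above in 23. At chr19:4614001-4615000 the left side averaged 92.0% and the right side 0.666%. At chr7:29063001-29064000 the left side averaged 4.34% and the right side 88.9%. Of the 80 step windows with a tested window beside them, 50 (62.5%) adjoined one below 10%, with a median of 1.53% for the lowest neighbour. Of 111 uniformly high windows with a neighbour, 7 (6.31%) adjoined one below 10%, and their median lowest neighbour was at 92.1%. These windows thus differed in what surrounded them, as a description of the same levels that chose them.

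**Figure D2:**
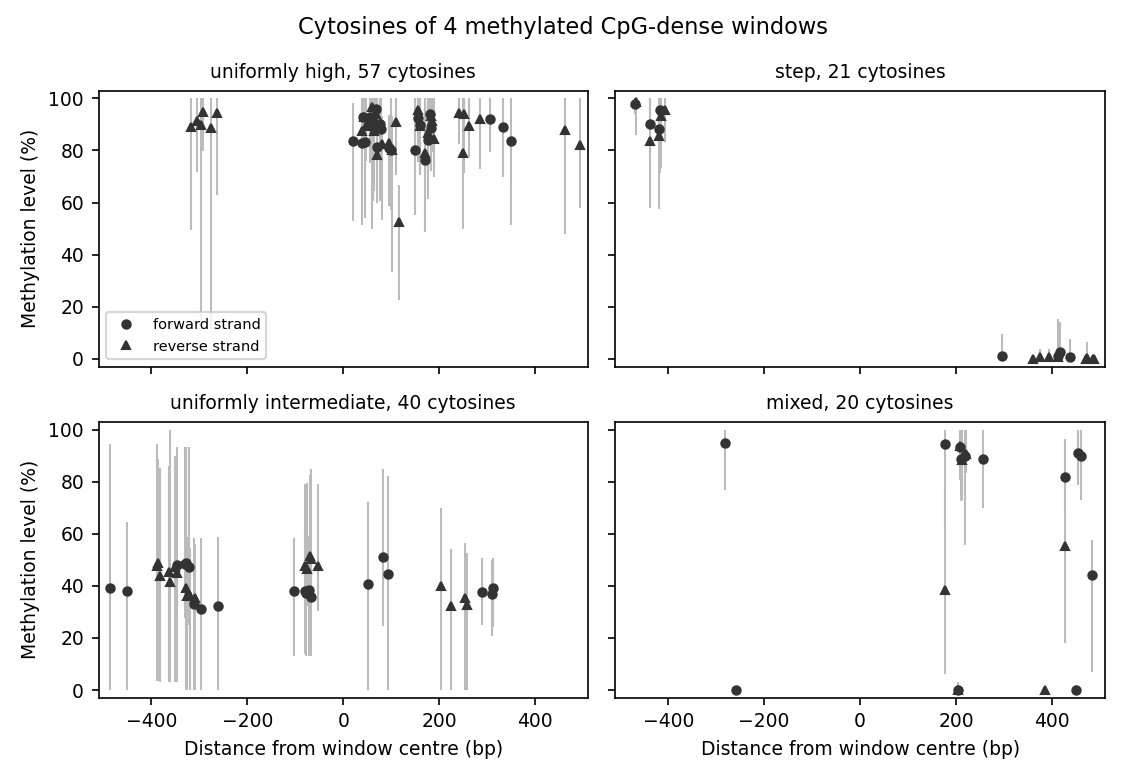
Methylation level (%) of each cytosine, as the mean over 20 libraries, against its distance in bp from the window's centre, for 1 window of each pattern. Grey lines run from the lowest to the highest library, circles stand for the forward and triangles for the reverse strand. The step window is near 100% on its left and near 0 on its right, while the 40 cytosines of the uniformly intermediate window lie between 31.1 and 51.3%.

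Uniformly intermediate windows included a group at the imprinted Gnas locus. Of the windows with a level of 40 to 60%, the 5 with the smallest spread between cytosines included 4 on chromosome 2 between 174110001 and 174154000. At chr2:174153001-174154000 the mean level was 41.6% with an SD of 3.74 points between its cytosines. At chr2:174125001-174126000 the mean level was 41.7%, and the libraries ran between 21.7 and 60.9%. These windows, with chr2:174154001-174155000 at 32.3%, lay 45, 31, 30, 2 and 1 windows from the one that held the promoter of Gnas. Gnas encodes the stimulatory G protein alpha subunit and has promoters methylated on 1 parental copy. The matched Gnas promoter itself was at 0.0904%.

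Windows of very high coverage formed a set of their own. In 13 windows the cytosines were read over 1000 times each, and the levels of these windows lay between 23.5 and 70.8%. The longest run of adjacent methylated windows, 6 windows at chr17:39980001-39986000, belonged to this set, with 10406 to 15627 reads per cytosine. Its windows lay within 28.8 to 30.9%. It included the windows with most cytosines, which held 178, 125 and 95. The files do not annotate this run, and 515 windows remained without the set.

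Methylated windows were spread over all 19 chromosomes in unequal shares. They were 0.959% of the CpG-dense windows of chromosome 16 (4 of 417) and 6.68% of those of chromosome 7 (63 of 943), with 6.53% on chromosome 10 and 6.27% on chromosome 17. Of the 332 stretches of 1 Mb that held a methylated window, 228 held a single one. The most, 11, lay in the stretch from 80 Mb on chromosome 10. Windows next to another methylated one numbered 60 (11.4%).

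Both strands of a CpG were read for 3755 of the 11507 CpGs in methylated windows. Their levels differed by a median of 2.09 points and by less than 9.29 points in 90% of cases. In 79 CpGs (2.10%), spread over 56 windows, the strands differed by more than 50 points. Of these, 12 had 1 strand at or below 5% in every library. The mixed window at chr4:138276001-138277000, whose cytosines ran between 0 and 94.7%, showed cytosines near 0 among highly methylated ones.

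Promoters were found by matching the spacing of measured CpGs to the RefSeq promoter table, which gives names without carrying coordinates between builds. With at least 5 matching CpGs, 50 of the 528 windows (9.47%) held a promoter, and 40 (7.58%) after a check that neighbouring matches shift by the same distance between builds to within 10 kb. The corresponding share of CpG-dense windows below 20% was 41.1%. The nearest window with a matched promoter lay at a median of 22 kb from methylated windows, against 1 kb from CpG-dense windows below 20%. At most 1 kb separated 13.6% of methylated and 55.4% of less methylated CpG-dense windows from such a window. Genes whose promoter had too few measured CpGs were not matched.

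The 40 windows gave 44 genes in 39 windows when each gene was represented by its best-matched promoter. The promoter's own cytosines were at 80% or above for 10 genes, at 20 to 80% for 25 and below 20% for 9. Of the last set, 5 were below 5%: for example, the promoter of Ddx17, an RNA helicase gene, was at 0.107% in a window of 21.9%, and that of Rom1, a gene of photoreceptor outer segments, at 0.156% in a window of 28.8%. Over all 7627 genes with a matched promoter, 167 (2.19%) had a promoter level of at least 20% and 61 of at least 80%. The promoters of the 44 genes held a median of 22.5 CpGs in 300 bases, against 7 over the whole table. This follows from how they were chosen, since windows needed at least 20 cytosines and matches at least 5 measured CpGs.

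Several germline genes had a promoter in a methylated CpG-dense window. Of 13 matched genes in a list of germline and meiosis genes, 6 (46.2%) lay in methylated CpG-dense windows, against 0.577% of all matched genes (44 of 7627). The list was drawn up with earlier results of these data known, and the genes were chosen for their levels, so no test is given. By promoter level, 11 of the 13 were at 20% or above and 9 at 80% or above, so listed germline genes made up 11 of the 167 matched genes at 20% or above. The exceptions were Smc1b, at 14.6%, and Tdrd5, at 0.372%.

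Ddx4 encodes the germ cell RNA helicase also known as mouse vasa. Its promoter, in the mm9 window chr13:113442001-113443000, had levels of 89.5, 92.2, 86.7, 89.0 and 89.7% in PML-RARα CD34− libraries and 89.6, 89.4, 92.4, 88.1 and 90.05% in PML-RARα CD34+ libraries. In WT mice it had 90.1, 90.4, 88.2, 90.2 and 91.5% in CD34− libraries and 89.5, 87.3, 89.8, 89.1 and 89.7% in CD34+ libraries. All 4 groups overlapped, and no library stood outside 86.7 to 92.4%. These values rest on 19 CpGs, of which 16 are the capitals in its printed sequence.

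Levels differed between the other germline promoters. Mael, which takes part in silencing transposons in germ cells, averaged 91.6 ± 2.32% in PML-RARα CD34−, 94.1 ± 1.30% in PML-RARα CD34+, 91.1 ± 2.41% in WT CD34− and 92.7 ± 3.39% in WT CD34+ libraries (SD, n = 5 libraries per group). Boll, an RNA-binding protein of spermatogenesis, averaged 79.9 ± 2.12%, 80.9 ± 3.56%, 81.2 ± 2.79% and 80.7 ± 5.50% in the same groups. Hormad1, a protein of meiotic chromosomes, had a mean of 84.8% and Dmrtb1, a transcription factor of spermatogonia, of 94.1%. Promoters that missed the limit of 20 cytosines had like levels: Tex101 at 94.4%, Slc25a31 at 93.7%, Fkbp6 at 93.0% and Sycp1 at 87.0%.

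Some germline promoters were only partly methylated. Smc1b, the meiotic cohesin subunit, had levels of 17.3, 16.6, 14.0, 10.9 and 12.7% in PML-RARα CD34− libraries and 17.3, 19.6, 14.6, 13.0 and 16.5% in PML-RARα CD34+ libraries. Its levels in WT mice were 9.93, 11.9, 14.0, 14.1 and 16.3% in CD34− libraries and 18.3, 13.9, 14.2, 14.9 and 12.1% in CD34+ libraries. The groups overlapped, and its whole window, which it shares with the Ribc2 promoter at 23.2%, was at 28.6%. Meioc, a meiosis factor at 56.98%, and Hormad2 at 54.1% were intermediate outside CpG-dense windows, with libraries between 31.4 and 77.5% for Meioc and between 34.7 and 72.1% for Hormad2.

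Further genes with methylated promoters were chosen after their values were seen. Naa11, an acetyltransferase gene expressed in the testis, was at 95.5%. Hsf5, a heat shock factor of spermatogenesis, was at 85.0%. Papolb, the testis poly(A) polymerase, averaged 56.4 ± 4.46% in PML-RARα CD34−, 60.1 ± 4.74% in PML-RARα CD34+, 53.4 ± 3.94% in WT CD34− and 55.6 ± 4.52% in WT CD34+ libraries (SD, n = 5 libraries per group). Sox30, a testis transcription factor, was at 38.2%, and Sycp2l, an oocyte protein of meiotic chromosomes, at 31.2%. Lhcgr, the luteinising hormone receptor of the gonads, was at 74.6%. Genes with other known roles were there too, among them Alpk3, a muscle kinase gene, at 62.0%, and Cyp2r1, a vitamin D hydroxylase gene, at 31.3%. High levels were also found at genes for which no role is given here, among them Gm15455 at 95.3%, Plekhg4 at 93.6% and Tmem267 at 75.4%. The genes named are examples, so they do not show what share of methylated promoters belongs to genes of the testis or gonads.

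Imprinted promoters in methylated CpG-dense windows were intermediate. Of 13 matched imprinted genes, 2 (15.4%) were members, against 0.577% of all matched genes (44 of 7627). By promoter level, 4 of the 13 were at 20% or above. The median was 0.833% for the matched imprinted genes outside methylated CpG-dense windows. This list too was drawn up with earlier results of these data known, so no test is given. Igf2r, the receptor that clears insulin-like growth factor 2, had levels of 27.3, 34.3, 29.4, 35.7 and 38.4% in PML-RARα CD34− libraries and 36.5, 23.8, 44.6, 47.9 and 31.5% in PML-RARα CD34+ libraries. Its levels in WT mice were 26.2, 29.7, 32.6, 35.4 and 33.0% in CD34− libraries and 33.1, 33.1, 40.3, 45.9 and 40.8% in CD34+ libraries. The groups overlapped and the libraries ran between 23.8 and 47.9%.

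Plagl1, a zinc finger transcription factor, shares its window with the promoter of the noncoding RNA Hymai. Its promoter averaged 28.7 ± 10.6% in PML-RARα CD34−, 29.4 ± 7.12% in PML-RARα CD34+, 31.4 ± 6.69% in WT CD34− and 35.2 ± 12.1% in WT CD34+ libraries (SD, n = 5 libraries per group). Outside CpG-dense windows, Zrsr1 was at 41.4% and Mkrn3 at 27.2%. The SD over the 20 libraries was 9.02 points for Plagl1 and 6.49 points for Igf2r, against 1.42 points for Ddx4.

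**Figure D3:**
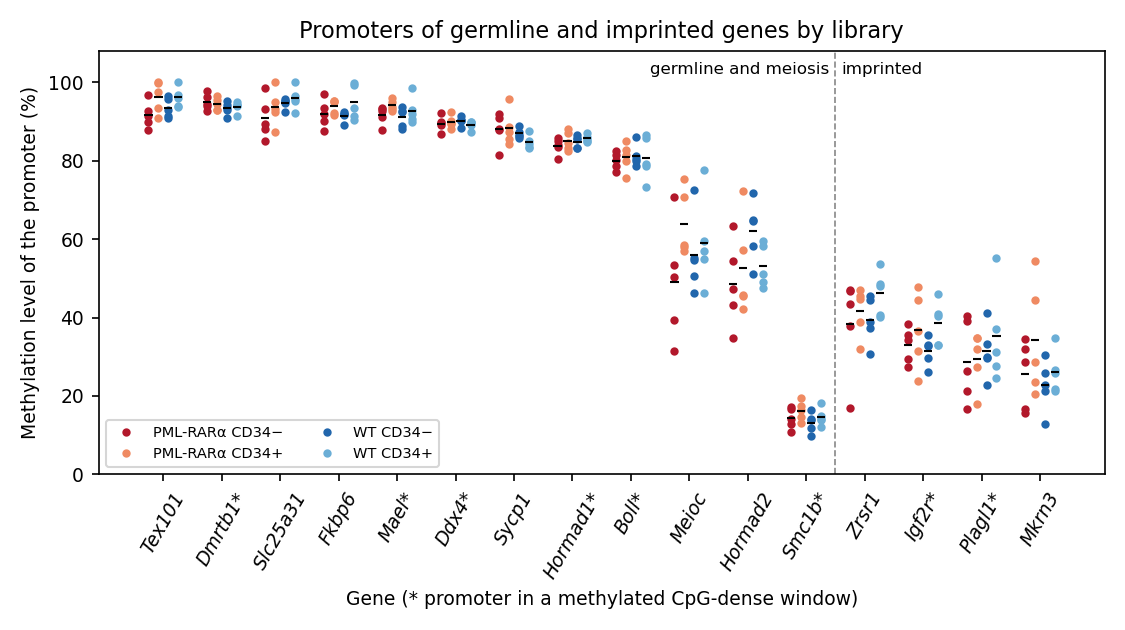
Methylation level (%) of the promoters of listed germline and imprinted genes at 10% or above, apart from Peg12, with 1 point per library, coloured by group, and bars for group means. Germline promoters from Tex101 to Boll lie above 70% in every library and imprinted ones below 60%. An asterisk marks promoters in methylated CpG-dense windows.

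No gene of 3 other lists lay in a methylated CpG-dense window, against 0.577% of all matched genes (44 of 7627). With so few matched genes in these lists, finding none is near that share. The highest promoter level was 4.49% among 8 matched Hox genes, 0.485% among 10 matched granulocyte and progenitor genes and 4.95% among 6 matched regulators of other lineages. Low levels were the rule, with a median of 0.113% over all matched genes outside methylated CpG-dense windows. Gfi1, a repressor needed for granulocyte development, had a promoter level of 0.117%, although a uniformly high window lay 3 windows away.

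Short motifs were counted in the 300-base promoters, from 250 bases before to 50 after the start, on both strands. TTCCCGC, a sequence bound by E2F6, was in 9 of the 44 promoters and in 4.60% of all 32851 promoters of the table. It was in 4 of the 6 germline promoters, Boll, Ddx4, Hormad1 and Smc1b. CACGTG, the E-box that MYC and MAX bind, was in 8 of the 44 and in 7.15% of all. Among the germline genes it was in Ddx4, Hormad1 and Mael, and among the imprinted ones in Igf2r and Plagl1. TGCCGC was in 8 of the 44 and in 11.6% of all. These counts describe letters in a window. All 3 motifs contain CG, and the 44 promoters hold more CpGs than most, whose part in the counts was not tested.

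The level of a methylated CpG-dense window varied less between libraries of a group than that of a sparser window. Between 90 and 100%, the median SD within groups was 1.58 points for methylated CpG-dense windows and 3.71 points for windows of 3 to 19 cytosines. Between 40 and 60% it was 5.68 against 8.89 points, and between 20 and 40% 5.08 against 8.29 points. The windows also differed in depth, with a median of 2367 against 444 reads per library between 90 and 100%. The part of depth in this was not tested.

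The windows with the largest spread between libraries were intermediate in level. Those at chr10:116652001-116653000, chr7:29063001-29064000, chr4:131478001-131479000 and chr17:87929001-87930000 were step windows. The level of a step window sums reads, so it also depends on how reads divide between its sides. The part of this in the spread was not tested. At chr10:116652001-116653000 the libraries ran between 20.6 and 68.9%, with 35.5 ± 8.12% in PML-RARα CD34− against 55.8 ± 12.7% in PML-RARα CD34+ cells, and 35.9 ± 19.0% in WT CD34− against 58.3 ± 5.75% in WT CD34+ cells (SD, n = 5 libraries per group). Neither difference passed the test, with an adjusted p of 0.541 in PML-RARα and 0.309 in WT cells. At chr11:58773001-58774000, where every group held both high and low libraries, the range was 5.66 to 45.7%.

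Over all 528 windows, the mean level of the 4 groups lay within 1 point. It was 60.5 ± 0.783% in PML-RARα CD34−, 61.1 ± 0.613% in PML-RARα CD34+, 60.6 ± 0.873% in WT CD34− and 61.2 ± 0.707% in WT CD34+ libraries (SD, n = 5 libraries per group). PML-RARα minus WT was −0.122 points in CD34− and −0.139 points in CD34+ cells. Within the flowcells that held both genotypes it was −0.396 and −0.0537 points in CD34− cells, and 0.417 and 0.182 points, of the opposite sign, in CD34+ cells. CD34− minus CD34+ was −0.641 points in PML-RARα and −0.658 points in WT cells, and all these pairs of groups overlapped. The titles number the libraries so that each CD34+ library is followed by a CD34− library of the same genotype, and the labels do not say whether such libraries share a mouse. Between libraries of consecutive numbers the CD34− one was lower in 4 of 5 cases in PML-RARα mice, with differences of −0.979 to 0.075 points, and in 5 of 5 in WT mice, with differences of −1.17 to −0.419 points. Within flowcells the WT difference was −1.06, −0.419 and −0.376 points, and in the only flowcell with both PML-RARα fractions it was −1.23 points. Over all 84524 tested windows the corresponding differences were −0.561 points in PML-RARα and −0.882 points in WT cells.

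By pattern, the maturation differences were also small. They were largest in the 105 step windows, at −1.46 points in PML-RARα and −1.84 points in WT cells, with overlap of the fractions in each genotype. Within flowcells the step windows differed by −2.03 points in PML-RARα cells and by −2.33, −2.15 and −1.18 points in WT cells. The 146 mixed windows differed by −0.773 points in PML-RARα and −0.502 points in WT cells. In the 187 uniformly high windows the mean was 90.9 ± 0.134% in PML-RARα CD34− and 91.8 ± 0.533% in PML-RARα CD34+ libraries, without overlap. In WT mice it was 91.2 ± 0.247% in CD34− and 91.9 ± 0.366% in CD34+ libraries, with overlap (SD, n = 5 libraries per group). The level was lower in CD34− cells in 72.2% of these windows in PML-RARα and in 73.3% in WT mice, against 55.3% and 59.7% of all tested windows. The latter differ in level and depth and include 12929 CpG-dense windows below 20%, of which 50.8% and 48.5% were lower. Sparser windows of like level were not compared, so this excess cannot be tied to CpG-dense windows. Over the uniformly high windows, the CD34− library of each consecutive pair of numbers was lower in 5 of 5 cases in each genotype. The 90 uniformly intermediate windows were higher in CD34− cells on average, by 0.928 points in PML-RARα and 0.446 points in WT mice, but this sign did not hold within every flowcell. In the only flowcell with both PML-RARα fractions the difference was −0.696 points, and in the 3 with both WT fractions it was −0.246, 1.90 and 0.409 points. These windows included all but 1 of the 13 of very high coverage. Those 13 were higher in CD34− than in CD34+ cells, on average by 1.33 points in PML-RARα mice and by 0.899 points in WT mice. Within flowcells this was 0.180 points in PML-RARα mice and −0.280, 2.49 and 1.28 points in WT mice. These differences were not tested, since the windows were grouped by their levels.

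**Figure D4:**
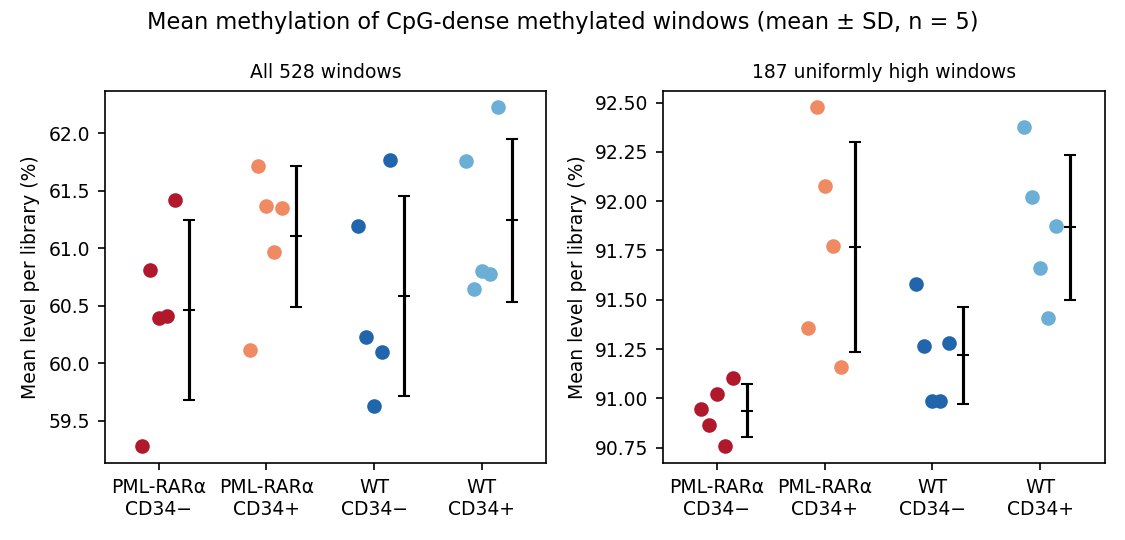
Mean methylation level (%) of each library over all 528 methylated CpG-dense windows and over the 187 uniformly high ones, with the mean and SD of 5 libraries beside each group; the vertical axes do not start at 0. All groups overlap over the 528 windows, and over the uniformly high ones the 5 PML-RARα CD34− libraries lie below the 5 PML-RARα CD34+ libraries.

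Single windows were tested by a quasi-binomial logistic model of the methylated and unmethylated reads, fitted to all 84524 windows with Benjamini-Hochberg adjustment over all of them. A call required an adjusted p below 0.05 and group means at least 10 points apart. Between genotypes, no methylated CpG-dense window was called, in CD34− cells (0 of 528; 0% of all tested windows) or in CD34+ cells (0 of 528; 0% of all tested windows). At an unadjusted p below 0.05 there were 39 (7.39%) in CD34− cells, against 8.03% of all tested windows, and 22 (4.17%) in CD34+ cells, against 4.39%. Limma on the logit of the levels called 0 in either fraction, with 3 and 8 windows at an unadjusted p below 0.05.

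The windows with the smallest p between genotypes did not pass the test. At chr3:108000001-108001000 the level was 78.7, 71.6, 71.7, 70.6 and 73.1% in PML-RARα CD34− libraries, against 62.8, 66.9, 67.0, 69.3 and 71.5% in WT CD34− libraries. In CD34+ cells it was 72.3, 75.0, 73.1, 72.6 and 70.8% in PML-RARα libraries, against 62.6, 67.6, 65.2, 69.8 and 68.9% in WT libraries. The groups overlapped in CD34− cells and did not in CD34+ cells. The differences, 5.63 points (adjusted p = 0.475, quasi-binomial test) and 5.94 points (adjusted p = 1), did not pass. At chr5:123213001-123214000 the level was 69.7 ± 9.13% in PML-RARα CD34− and 82.1 ± 2.35% in WT CD34− libraries (SD, n = 5 libraries per group), with a difference of −12.4 points and an adjusted p of 0.481 in the quasi-binomial test. That difference was −19.6 points at a coverage minimum of 20 and −7.74 points without the 5 libraries of high scatter, and did not pass under either. At chr1:155272001-155273000 it was 23.3 ± 5.29% in PML-RARα CD34+ and 33.2 ± 4.51% in WT CD34+ libraries (SD, n = 5 libraries per group), with an adjusted p of 1 in the quasi-binomial test. The other windows named by this rule differed by at most 6.38 points.

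With maturation, 2 of the 528 windows (0.379%) were called in WT cells, both lower in CD34− cells, against 0.45% of all tested windows in either direction. Lower calls made up 0.394% of all tested windows and higher calls 0.0556%. The share of methylated CpG-dense windows was near that background. In PML-RARα cells 0 of 528 were called, against 0.0722% of all tested windows, with 0.0615% lower and 0.0106% higher in CD34− cells. At an unadjusted p below 0.05 there were 44 (8.33%, against 9.59% of all) in PML-RARα and 40 (7.58%, against 6.18%) in WT cells. Limma called 0 methylated CpG-dense windows in both genotypes, with 20 in PML-RARα and 17 in WT cells at an unadjusted p below 0.05. Without the limit of 10 points, 1 window in PML-RARα and 4 in WT cells had an adjusted p below 0.05, against 0.0946% and 0.516% of all tested windows.

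The window chr11:80291001-80292000 had the larger of the called differences. It held 21 cytosines beside a window of 134 cytosines at 0.0856%, and no promoter was matched to it. In PML-RARα mice its level was 33.7, 28.3, 34.6, 33.7 and 35.8% in CD34− libraries, against 46.6, 49.8, 46.9, 43.7 and 44.7% in CD34+ libraries. In WT mice it was 44.1, 31.6, 35.8, 24.1 and 41.0% in CD34− libraries, against 53.5, 51.1, 55.7, 47.8 and 53.3% in CD34+ libraries. The fractions did not overlap in either genotype. The difference was −16.96 points in WT cells (adjusted p = 0.00709, quasi-binomial test) and −13.1 points in PML-RARα cells (adjusted p = 0.0994). The interaction, PML-RARα minus WT maturation, was 3.86 points (adjusted p = 0.971). Of its cytosines, 17 were lower and 3 higher in WT CD34− cells, by −53.6 to 3.37 points. Within the 3 flowcells with both WT fractions the difference was −20.9, −19.6 and −11.8 points.

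That call depended on the coverage minimum and on the model. It held without each of the 20 libraries, at adjusted p-values between 0.00223 and 0.0364, and without WT CD34− replicate 16 the window was also called in PML-RARα cells (adjusted p = 0.0196, quasi-binomial test). It was lost with a coverage minimum of 20 reads (−11.1 points, adjusted p = 0.503, quasi-binomial test), with only the WT groups in the fit (adjusted p = 0.083) and by limma (adjusted p = 0.205).

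The other called window, chr8:111417001-111418000, was a step window with 92.2% on its left and 22.9% on its right side. In PML-RARα mice its level was 62.4, 70.7, 61.9, 58.1 and 66.3% in CD34− libraries, against 66.0, 72.7, 51.9, 62.8 and 66.4% in CD34+ libraries. Its levels in WT mice were 52.7, 59.1, 60.3, 54.7 and 58.3% in CD34− libraries, against 66.6, 74.2, 69.5, 66.9 and 69.7% in CD34+ libraries. The WT fractions did not overlap, and the PML-RARα fractions did. The difference was −12.4 points in WT cells (adjusted p = 0.0249, quasi-binomial test) and −0.0957 points in PML-RARα cells (adjusted p = 0.997). The difference between the genotypes, 12.3 points, did not pass (adjusted p = 0.926). The call was lost without CD34− replicate 2, 16 or 18 or CD34+ replicate 7, 9 or 17 of the WT mice, with adjusted p-values up to 0.109, and in a fit that included the flowcell (adjusted p = 0.0587, quasi-binomial test). It was also lost with a coverage minimum of 20 (−8.99 points, adjusted p = 0.574) and by limma (adjusted p = 0.744).

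A uniformly high window near Gfi1 was lower in CD34− cells of both genotypes, by less than 10 points. At chr5:108150001-108151000, 57 cytosines had a level of 80.4, 83.1, 85.0, 84.1 and 86.2% in PML-RARα CD34− libraries, against 88.0, 92.7, 88.7, 89.1 and 89.7% in PML-RARα CD34+ libraries. In WT mice it was 85.9, 86.6, 87.1, 83.6 and 85.8% in CD34− libraries, against 95.3, 91.0, 90.6, 90.1 and 90.2% in CD34+ libraries. The fractions did not overlap in either genotype. The difference was −5.88 points in PML-RARα cells (adjusted p = 0.0305, quasi-binomial test) and −5.62 points in WT cells (adjusted p = 0.0148). Of its cytosines, 44 were lower and 13 higher in CD34− cells of PML-RARα mice, with a median difference of −2.16 points. In WT mice 55 were lower and 2 higher in CD34− cells, with a median of −5.69 points. Limma gave an adjusted p of 0.527 in PML-RARα and of 0.537 in WT cells, and a fit that included the flowcell gave 0.540 in PML-RARα cells. By the quasi-binomial test the adjusted p in PML-RARα cells was above 0.05 without CD34− replicate 6 or 14 or CD34+ replicate 5 or 19, and at most 0.171. In WT cells it was 0.0622 without CD34− replicate 16 and 0.0531 without CD34+ replicate 9.

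A uniformly intermediate window was higher in CD34− cells, with a WT difference just under 10 points. At chr13:109907001-109908000, 22 cytosines in 208 bp had a level of 57.2, 67.8, 58.7, 58.4 and 62.7% in PML-RARα CD34− libraries, against 47.2, 40.1, 46.8, 48.4 and 53.5% in PML-RARα CD34+ libraries. Its levels in WT mice were 63.0, 55.2, 60.03, 65.8 and 63.0% in CD34− libraries, against 59.5, 45.6, 52.3, 49.1 and 50.9% in CD34+ libraries. The fractions did not overlap in PML-RARα mice, and the WT fractions overlapped through 1 library of each. The difference was 13.8 points in PML-RARα cells (adjusted p = 0.0956, quasi-binomial test) and 9.93 points in WT cells (adjusted p = 0.0471). Without single libraries the adjusted p in WT cells lay between 0.0228, without WT CD34− replicate 8, and 0.236, without WT CD34− replicate 16 (quasi-binomial test). At a coverage minimum of 20 the WT difference was 2.41 points (adjusted p = 0.917, quasi-binomial test). It did not pass by limma, whose smallest adjusted p over the methylated CpG-dense windows in WT cells was 0.205. Without the 5 libraries of high scatter the WT difference was 11.9 points, and the window was called. The window before it, with 14 cytosines, was at 25.9 against 16.4% in PML-RARα CD34− and CD34+ cells, and at 25.8 against 21.2% in WT cells.

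A further window was chosen after its values were seen, since other settings called it. At chr5:32726001-32727000, the level in WT mice was 74.0, 75.3, 71.3, 64.5 and 69.3% in CD34− libraries, against 84.4, 85.7, 84.8, 82.4 and 84.7% in CD34+ libraries. These fractions did not overlap, and the difference of −13.5 points had an adjusted p of 0.0528 in the quasi-binomial test. In PML-RARα mice the level was 73.2 ± 7.93% in CD34− and 80.4 ± 6.62% in CD34+ libraries (SD, n = 5 libraries per group), with overlap.

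**Figure D5:**
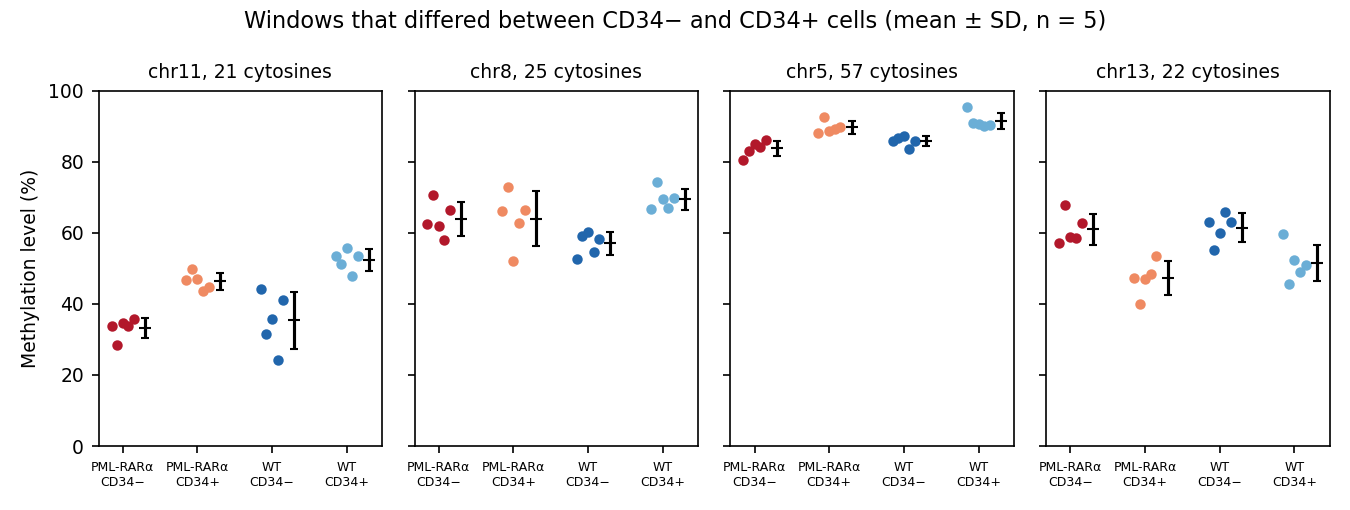
Methylation level (%) of 4 windows in each library, with the mean and SD of 5 libraries beside each group. The chr11, chr8 and chr5 windows are lower in WT CD34− than in WT CD34+ libraries without overlap, and the chr13 window is higher in CD34− libraries, at 61.0 against 47.2% in PML-RARα and 61.4 against 51.5% in WT mice.

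No methylated CpG-dense window was called for a difference in maturation between genotypes (0 of 528; 0% of all tested windows), with 16 (3.03%) at an unadjusted p below 0.05, against 5.19% of all tested windows. Limma called 0, with 3 at an unadjusted p below 0.05. The largest named interaction was 15.5 points at chr8:87436001-87437000 (adjusted p = 0.943, quasi-binomial test). Across the 528 windows the maturation differences of PML-RARα and of WT cells, which share no library, had a Pearson r of 0.437 and a Spearman rho of 0.313, and the same sign in 335 windows (63.4%). Over all tested windows r was 0.295 and 54.3% had the same sign. The genotype differences of CD34+ and of CD34− cells, which also share no library, had an r of 0.224 and the same sign in 57.0% of the 528 windows. Over all tested windows these were 0.0331 and 50.5%. All tested windows include sparser, shallower ones and many near 0%, whose part in these contrasts was not tested. These correlations are over windows and describe these libraries, which share flowcells and differ in depth.

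No promoter window passed the test. None of the 39 promoter windows had an adjusted p below 0.05 in any of the 5 comparisons, and the smallest was 0.414 by the quasi-binomial test. Their differences lay between −8.81 and 7.36 points in the 4 comparisons of groups. A p above the threshold does not show that levels were equal.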

How the data were processed

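ERRBS libraries of sorted promyelocytes numbered 20, 5 in each of 4 groups taken from the labels. CASAVA 1.8.2, Bismark (version not given in the sources used here) and mm9 are named in the submitters' processing notes. The authors deposited, per the file headers, the read count (coverage) at each CpG cytosine of each strand and the percent of those reads with C and with T. No listed cytosine had fewer than 10 reads. C and T together made up as little as 90.03% of the reads at a cytosine.

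Methylated reads were taken as coverage multiplied by the percent of C, rounded; all values lay within what rounding of the percent allows of a whole number. Sums were taken in fixed 1000 bp windows over cytosines with at least 10 reads in all 20 libraries. A read counts at each cytosine it covers, and reads carry no molecular identifiers, so precision from depth covers counting error only. Total coverage ranged from 83631324 to 362881291. No library was an exact copy of another in its group: the chi-square per methylated CpG-dense window was at least 19.0 on average in every pair. Windows of very high coverage weigh on this mean, and the median was 4.01 for WT CD34− replicates 8 and 10. The chi-square takes reads at each cytosine as independent, so it cannot tell whether libraries come from the same DNA.

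Windows with at least 3 cytosines (84524) were tested in a quasi-binomial logistic model, with group as the term. The overdispersion, shared by the 4 groups, was moderated as in limma's squeezeVar (16 residual and 3.07 prior degrees of freedom), kept at 1 or above, and tested by a two-sided F test with Benjamini-Hochberg adjustment. Its median was 9.49 over all windows and 19.9 in methylated CpG-dense ones. The alternatives were a coverage minimum of 20, limma on the logit with a prior count of 1, flowcell as a factor, the replicate block, leaving out each library, leaving out 5 libraries of high scatter, a limit of 5 points, windows shifted by 500 bp, fits of 2 groups, unweighted levels and a count of both strands as 1 site. A check of promoter positions, a block for consecutive title numbers and leaving out windows over 1000 reads per cytosine were added after seeing the data.

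Promoters were named where at least 5 measured CpGs fell on CG at 1 offset of a promoter of the RefSeq table (GRCm38.p6, 32851 promoters of 27025 genes); positions within 10 kb of the shift of the nearest match with at least 15 CpGs were kept. Levels in mm9 windows carry mm9 coordinates and printed promoters those of GRCm38.p6. Windows named were the called ones, where there were none, the 3 of smallest p on either side, those with most cytosines, those next to the limit of 20% and those with extreme spread. The windows and lists were chosen with earlier results of these data known. Python 3.11.15, numpy 2.4.6, scipy 1.17.1, R 4.3.3 and limma 3.58.1 were used. Genes, exons and introns of mm9 were not analysed here, since no annotation of that build was used.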

Additional observations from a re-analysis of the deposited data

Results flagged for a closer look

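In 80 groups of 5 libraries, 1 library was checked for standing far from the other 4. Chance gives about 1 in 20, or 4 groups, and 4 were found. WT CD34+ replicate 17 had a mean level of 72.9% over the windows of 60 to 80%, while the other 4 WT CD34+ libraries lay between 70.6 and 71.1%. PML-RARα CD34− replicate 20 had a mean level of 90.4% over the windows of at least 80%, while the others lay between 90.04 and 90.1%. PML-RARα CD34− replicate 6 was at 28.3% in the chr11:80291001-80292000 window, with the others between 33.7 and 35.8%. WT CD34+ replicate 1 was at 95.3% in the chr5:108150001-108151000 window near Gfi1, with the others between 90.1 and 91.0%. The WT difference of that last window was −4.65 points without this library.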

How the results depend on the processing

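Between genotypes and for the interaction, 0 methylated CpG-dense windows were called under all alternatives run; the interaction has no fit of 2 groups. In WT maturation, 2 windows were called, and without single libraries 1 to 3, with 1 without WT CD34+ replicate 7, 9 or 17 or WT CD34− replicate 16 or 18. A limit of 5 points gave 4, leaving out the 5 libraries of high scatter 4, windows shifted by 500 bp 1 and limma 0. A coverage minimum of 20 gave 1, a different window (chr5:32726001-32727000). Flowcell as a factor gave 2, of which 1 was shared with the result reported. In PML-RARα maturation, a limit of 5 points gave 1 and leaving out single libraries 0 to 1, with 1 without WT CD34− replicate 16. With the number after # in the titles as a replicate block, 3 windows were called in WT maturation, among them the 2 reported, and 370 of all tested windows. These numbers were not treated as pairing, since the correlation of differences between the numbers lay between −0.0736 and 0.136. With pairs of consecutive title numbers as the replicate block, chosen after seeing the data, 3 methylated windows were called in WT maturation, among them the 2 reported, 0 in PML-RARα maturation and 0 for the interaction. The adjusted p was then 0.0728 at chr5:108150001-108151000 in PML-RARα cells and 0.0712 at chr13:109907001-109908000 in WT cells, both below 0.05 without the block. Deviations of such libraries from their group means correlated at −0.142 to 0.426 in PML-RARα and 0.134 to 0.464 in WT mice over the 528 windows. Over 14695 windows of 20 to 80% they correlated at −0.0568 to 0.194 in PML-RARα and −0.00663 to 0.221 in WT mice. In WT mice 4 of 5 CD34− libraries correlated best with the CD34+ library of their own pair, in both sets of windows. In PML-RARα mice 2 of 5 did over the 528 windows and 1 of 5 over the 14695. Libraries of such a pair also carry the same number after #. The labels state no pairing, so the main test used none. Whether the libraries share a mouse cannot be told from these values. The number of methylated CpG-dense windows was 106 at a coverage minimum of 20 and 2696 when both strands were counted as 1 site with at least 10 sites required. At a coverage minimum of 20, the PML-RARα minus WT difference in CD34− cells at chr19:56900001-56901000 was −1.27 points instead of 4.71, and the interaction at chr8:111417001-111418000 was −1.87 instead of 12.3 points; the cause was not tested. Matched promoter windows numbered 34 with at least 8 CpGs. Differences in mean level moved by less than 1 SD, between −0.954 and −0.345 points for maturation in either genotype without single libraries, while those between genotypes ran between −0.362 and 0.174 points and changed sign. Depth, with 298 reads or more per window and library, and 5 libraries per group limit the differences that can be called.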
